A study of Schizosaccharomyces pombe with 3 samples.

Results

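The genes described are those of fission yeast (Schizosaccharomyces pombe) that encode the Tup11, Tup12 and Ssn6 corepressor, the histone deacetylases Clr6, Hos2, Clr3, Sir2, Hst2 and Hst4, and Pst1, a scaffold of Clr6 complexes. They were chosen by name, as the intergenic and open reading frame (ORF) features that an array carries under a gene's symbol or systematic name. Of the 10 genes, 9 had features, with 1 upstream and 1 ORF feature each, which makes 18 of the 9974 genomic features on the array. No feature was named for tup12 itself, the gene whose protein was precipitated. Features called tup1 are described separately, since the annotation used here lists no gene under that name.

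Tup-family proteins and Ssn6 form corepressors that do not read DNA themselves. DNA-bound repressors bring them to promoters, and histone deacetylases, which remove acetyl groups from histone tails, are among the enzymes known to work with them. The deacetylases of fission yeast fall into classes. Clr6 and Hos2 are class I enzymes, Clr3 is a class II enzyme of the silencing complex SHREC, and Sir2, Hst2 and Hst4 are sirtuins, which depend on NAD. The measurements below ask where the Tup12 protein lay on the genes for this machinery.

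All 3 arrays belong to 1 group. Each compared DNA precipitated with an anti-GFP antibody from cells carrying GFP-tagged Tup12 (Cy5) with input DNA of the same chromatin (Cy3), from mid-log cultures in rich YES medium, crosslinked and sonicated. The labels describe 3 separate experiments, give no genotype beyond the tag and list no swapped dyes, and no untagged strain was analysed here. If the arrays do not come from separate cultures, p-values measure only the spread between arrays. Values are log2 ratios of precipitate over input, with the median of each array at 0, so that "enriched" and "depleted" mean above and below that median in limma at a Benjamini-Hochberg adjusted p under 0.05 over all 5462 features with a ratio on every array.

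A ratio could be formed at 63.3% to 67.8% of genomic spots per array, and pairs of arrays correlated across these features at r = 0.73 to 0.84. The median was 0.51 for intergenic features and -0.49 for ORFs. Intergenic features carry the name of 1 gene, and their position before that gene was checked against neighbouring genes. Features of divergent genes, which share 1 upstream region, correlated at r = 0.64 across 276 pairs, against 0.21 across 227 convergent pairs, so a feature is called upstream of its named gene.

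Of the 18 corepressor and deacetylase features, 8 had a ratio on all arrays and could be tested, 7 ORFs and 1 upstream region. Of these 8, 0 were enriched for Tup12-GFP by limma, against 42.2% of intergenic and 8.19% of ORF features tested. At an unadjusted limma p under 0.05, for which no share over all features is given, 0 were enriched and 4 depleted. By the ranking procedure in the labels, which lists features whose median percentile rank over spots is at or above 85, 0 of these 8 were in the list, against 25.2% of intergenic and 3.78% of ORF features. Among the 7 ORFs, 3 were depleted (tup11, hst2 and ssn6), against 38.8% of all ORFs tested. The median of the 7 was -0.63, beside -0.49 for all ORFs, and 6 of the 7 means lay below 0. The single upstream feature tested, that of ssn6, was not called, where 7.77% of intergenic features were depleted.

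**Figure D1:**
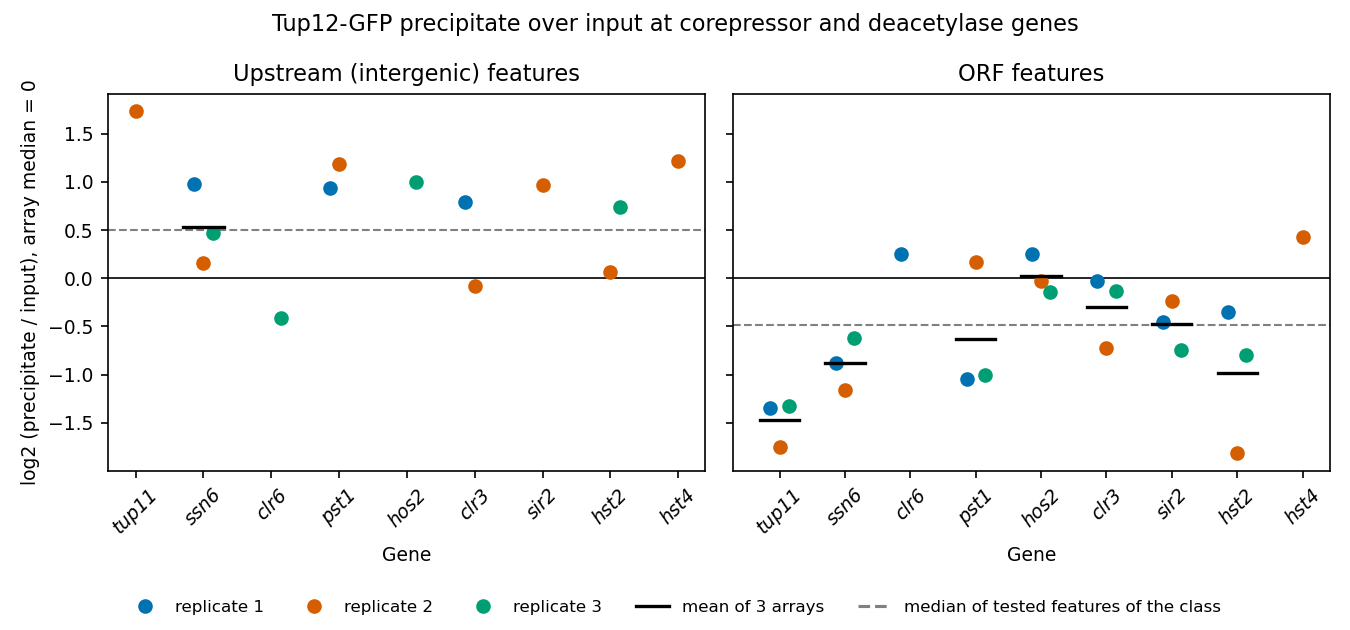
Log2 ratio of precipitate over input (y axis) for the upstream features (left) and ORF features (right) of the 9 genes (x axis). Points are arrays, black bars are means where all 3 arrays gave a ratio, and dashed lines are the medians of all tested intergenic (0.51) and ORF (-0.49) features. Most upstream points lie above 0 and most ORF points below it, and 8 upstream features lack at least 1 array.

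The corepressor genes come first. The tup11 ORF gave -1.34, -1.75 and -1.33 on replicates 1, 2 and 3. All arrays placed it well below their median, and its mean of -1.47 ± 0.24 (SD, n = 3, limma adjusted p = 9.23e-05) was the lowest among the 7 ORFs. It stood at the 9.09th percentile of ORF features, so its ratio was low even for a coding sequence. Its input signals per pixel were 1745 to 3501. When features were compared only with others of like input intensity, the mean of the tup11 ORF was -0.63 (limma adjusted p = 0.0339). Upstream of tup11 a ratio of 1.74 was obtained on replicate 2, from 1 of the 2 repeat spots, and none on the other arrays. Within replicate 2 the upstream feature thus lay 3.49 log2 units above the ORF, a single value with no replicate.

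The region upstream of ssn6, the gene of the partner protein that binds Tup11 and Tup12, was the only upstream feature measured on all arrays. The ssn6 upstream values were 0.98, 0.16 and 0.47. All were above 0, with replicate 2 lowest, and the mean of 0.54 ± 0.41 (SD, n = 3) was not called (limma adjusted p = 0.115, 95% interval -0.04 to 1.11). This is close to the intergenic median, at the 51.5th percentile of the class. Without replicate 2 the mean was 0.72 and passed (limma adjusted p = 0.0409), and 5 of 15 alternatives in all called this region enriched. The ssn6 ORF gave -0.87, -1.16 and -0.62, all below 0, for a mean of -0.88 ± 0.27 (SD, n = 3, limma adjusted p = 0.00996). Without replicate 1 the ORF mean of -0.89 no longer passed (limma adjusted p = 0.117).

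Taken within each array, the ssn6 upstream region exceeded the ORF by 1.85, 1.32 and 1.08. The 2 features did not overlap on any array, and the mean difference was 1.42 ± 0.39 (SD, n = 3, limma adjusted p = 0.00924, 95% interval 0.66 to 2.18). At limma adjusted p under 0.05, upstream was called above ORF in 47.5% of the 1283 genes tested this way and below it in 3.35%. The median difference over all of them, called or not, was 0.94. Without replicate 1 the ssn6 difference of 1.20 did not pass (limma adjusted p = 0.118). It was also smaller, at 0.73 (limma adjusted p = 0.0962), when features were compared only with others of like input intensity. In that comparison the ssn6 ORF turned to 0.18 while its upstream region gave 0.91 (limma adjusted p = 0.00510). Averaged over repeat spots, input signals per pixel were 1168 to 1569.9 at the upstream region and 2662 to 4506 at the ORF. The part of this gap in the difference was not tested further.

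Clr6 and Pst1 work together, Pst1 being a Sin3-family scaffold. For clr6 neither feature could be tested. Its upstream region gave -0.41 on replicate 3 and its ORF gave 0.25 on replicate 1, with no ratio elsewhere. That upstream value was 1 of only 2 below 0 among the 14 upstream values of all 9 genes, 12 being above 0, where 74.8% of single-array intergenic values lay above 0. Upstream of pst1 the values were 0.94 and 1.18 on replicates 1 and 2, with no ratio on replicate 3. Both values lay above the intergenic median. In a fit that admits features with values on at least 2 arrays, its mean was 1.06 ± 0.17 (SD, n = 2, limma adjusted p = 0.0199), in a setting where 40.2% of intergenic features were enriched. The pst1 ORF gave -1.05 and -1.004 on replicates 1 and 3 but 0.17 on replicate 2. The mean of -0.63 ± 0.69 (SD, n = 3) was not called (limma adjusted p = 0.0788). Without the differing array it was -1.03 and passed (limma adjusted p = 0.00655).

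For hos2, named hda1 on the array, the ORF gave 0.25, -0.03 and -0.15. The values straddled 0, and the mean of 0.03 ± 0.21 (SD, n = 3, limma adjusted p = 0.942, 95% interval -0.54 to 0.59) was the highest of the 7 ORFs, at the 74.7th percentile of ORFs. Its repeat spots disagreed on replicate 2, where they gave 0.56 and -0.62. The upstream feature gave 1.00 on replicate 3 alone, from 1 of the 2 repeat spots. A feature called IGR-hos2 was not counted, since hos2 is also an older symbol of another gene, and it had no ratio on any array.

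The clr3 ORF gave -0.02, -0.72 and -0.14. Replicate 2 was lowest, and the mean of -0.29 ± 0.37 (SD, n = 3) was not called (limma adjusted p = 0.398, 95% interval -0.87 to 0.28). The upstream region of clr3 gave 0.79 and -0.08 on replicates 1 and 2, on either side of 0, and no ratio on replicate 3. Its replicate 1 value came from 1 of the 2 repeat spots. With values on 2 arrays the mean of this region was 0.36 ± 0.61 (SD, n = 2, limma adjusted p = 0.422).

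Among the sirtuin genes, the sir2 ORF gave -0.45, -0.23 and -0.74. All lay below 0, but near the ORF median, and the mean of -0.48 ± 0.26 (SD, n = 3) was not called (limma adjusted p = 0.154). Sir2 is the sirtuin known for silencing at heterochromatin. Upstream of sir2 the value was 0.97 on replicate 2 alone, from 1 of the 2 repeat spots. The hst2 ORF gave -0.35, -1.82 and -0.79, below 0 on each array but spread widely, and its mean of -0.99 ± 0.75 (SD, n = 3) was called depleted (limma adjusted p = 0.00781). Without replicate 2, which was lowest, the mean was -0.57 and no longer passed (limma adjusted p = 0.0912). The call held in 5 of 13 alternatives, and the mean was -0.25 (limma adjusted p = 0.467) when features were compared only with others of like input intensity. Upstream of hst2 the values were 0.07 and 0.74 on replicates 2 and 3, with a mean of 0.40 ± 0.47 (SD, n = 2, limma adjusted p = 0.347). Hst4, a sirtuin known to act on lysine 56 of histone H3, is encoded by a gene with 1 usable array. On replicate 2 its upstream region gave 1.22 and its ORF 0.43, the highest single-array ORF value among these genes. The upstream value came from 1 of the 2 repeat spots.

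**Figure D2:**
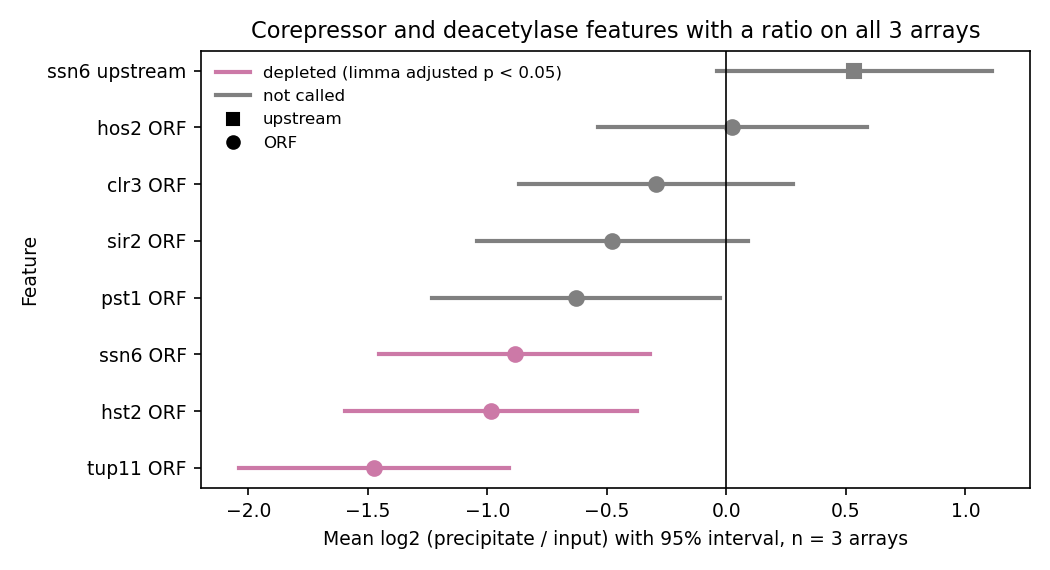
Mean log2 ratio of precipitate over input (x axis) with its 95% interval from limma for the 8 features with a ratio on all arrays (y axis, n = 3). Squares are upstream and circles are ORF features; the ORFs of tup11, hst2 and ssn6 are depleted, and the ssn6 upstream interval of -0.04 to 1.11 includes 0.

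In order from lowest to highest mean, the ORFs ran tup11, hst2, ssn6, pst1, sir2, clr3 and hos2. No pair of neighbours in this order held its order on all arrays. The step between hst2 and tup11 was 0.49 ± 0.53 (SD, n = 3), and the step between hos2 and clr3 was 0.32 ± 0.35, each present on 2 of the 3 arrays. The lowest ORF was better separated, since each tup11 value lay below each value of ssn6, pst1, sir2, clr3 and hos2. Only the hst2 values overlapped those of tup11.

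Upstream regions lay above their own ORF wherever both were measured. Across 8 genes this comparison could be made on 13 gene and array pairs, and the upstream value was the higher in 13 of 13. The share over all genes on the array was 79.5%. Upstream precipitate signals in these pairs were set against the median of accepted negative control spots, described below, with a rejected spot counted as 0. They lay below it at hos2, clr3, sir2, hst2 and hst4 (log2 of -1.60 to -0.22). At tup11, ssn6 and pst1 they lay above it (0.13 to 1.85). The bearing of this on the differences was not tested. In the fit with values on at least 2 arrays, the difference was 1.71 ± 0.25 at hst2 (SD, n = 2, limma adjusted p = 0.0224) and 1.50 ± 0.69 at pst1 (SD, n = 2, limma adjusted p = 0.0433), where 40.7% of genes were called. At clr3 it was 0.73 ± 0.12 (SD, n = 2, limma adjusted p = 0.183). The same hst2 values did not pass in the fit without replicate 1 (limma adjusted p = 0.0527). Those of pst1 did pass in the fit without replicate 3 (limma adjusted p = 0.0123). Single arrays gave 1.15 at hos2, 1.20 at sir2 and 0.79 at hst4. Each of these rests on 1 of the 2 upstream repeat spots, as do the tup11 value and the clr3 value on replicate 1.

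Ratios were missing in 13 of 27 upstream and 4 of 27 ORF cases, a case being 1 feature on 1 array. Of the 9 upstream features, 1 had a ratio on 3 arrays, 3 on 2 arrays and 5 on 1 array, while intergenic features over the whole array had a ratio on 3 arrays in 45.1% of cases, on 2 in 18.4%, on 1 in 17.3% and on none in 19.2%. Of the 9 ORFs, 7 had a ratio on 3 arrays (64.3% over all ORFs) and 2 on 1 array (10.6%), while 13.9% of all ORFs had a ratio on 2 arrays and 11.2% on none. In each of the 13 missing upstream cases and the 4 missing ORF cases the precipitate was accepted at 1 or both repeat spots and the input at neither, with a single accepted precipitate spot in 5 upstream and 2 ORF cases. Negative control spots (empty, buffer and foreign DNA) were accepted in the precipitate in 42.1% to 49.6% of cases per array and in the input in 1.54% to 1.85%.

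The precipitate channel was set against these controls, a measure chosen after the values were seen. Signals are means of the 2 repeat spots, with a rejected spot counted as 0, which lowers features with 1 accepted spot. The limit comes from single control spots. No upstream feature of the 9 exceeded the 95th percentile of negative controls (1448, 1623 and 1842 signal units per pixel on replicates 1, 2 and 3) on all arrays, where 12.8% of intergenic features did. The ssn6 upstream region came nearest, with 3277, 1429 and 2278, above the limit on replicates 1 and 3 and below it on replicate 2. Upstream of tup11 the signals were 1519.6, 1122 and 1569.9, above the limit on replicate 1 only. Among ORFs, 2 of 9 exceeded it on all arrays, against 10.6% of ORFs. These were clr3, with 3440.3, 1955 and 4046, and ssn6, with 2289.8, 1659 and 2030.5. Both also had a bright input, of 2459 to 3949 at clr3, so that neither ratio lay above 0. The tup11 ORF, with 984, 856 and 1199, stayed below the limit on every array.

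**Figure D3:**
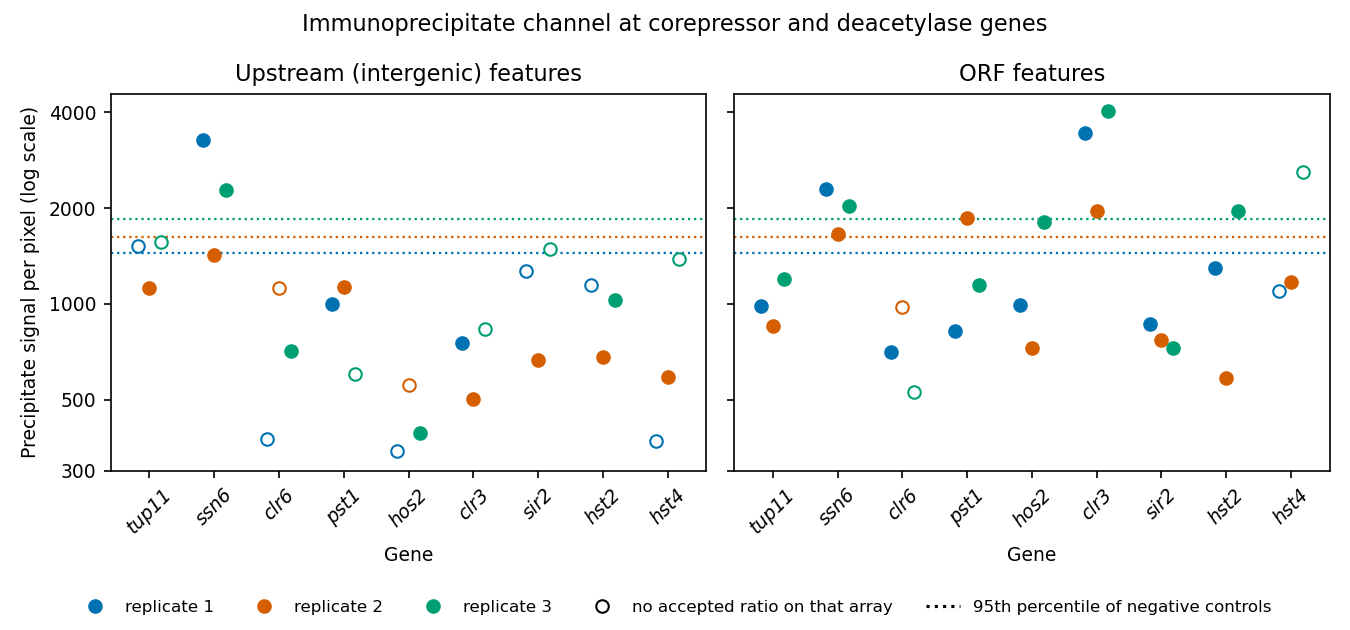
Precipitate signal per pixel on a log scale (y axis) for upstream features (left) and ORF features (right) of the 9 genes (x axis). Open circles mark arrays on which the input was not accepted, and dotted lines are the 95th percentile of negative controls of each array (1448, 1623 and 1842); the clr3 and ssn6 ORFs exceed their line on all arrays.

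Features called tup1 carry the budding yeast name of this protein family. The upstream one gave 2.26 on replicate 2 alone, from 1 spot, the highest single value among the features described here. The ORF feature gave -0.83, 0.06 and -0.42, for a mean of -0.40 ± 0.44 (SD, n = 3) that was not called (limma adjusted p = 0.248). The annotation and labels do not settle which gene these features represent, and nothing is said of tup12 from them.

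Features of genes that share an upstream region with a corepressor or deacetylase gene were read beside its own, which they need not match. In the ASM294v3 annotation, tup11 is divergent to SPAC18B11.09c, hst2 to rqc2 (ribosome quality control), pst1 to gfa1 (an enzyme of amino sugar synthesis), hst4 to hrp1 (a CHD-family remodeller) and hos2 to png1. The rqc2 feature of the region it shares with hst2 gave 0.55, 0.19 and 1.50, above 0 on all arrays, with a mean of 0.74 ± 0.68 (SD, n = 3, limma adjusted p = 0.0379). This passed the test, while the hst2 feature of that region had only 2 arrays. The gfa1 feature of the region it shares with pst1 gave 0.78 and 2.07 on replicates 2 and 3, so that on replicate 2, where both were measured, pst1 and gfa1 gave 1.18 and 0.78. The features named for SPAC18B11.09c and hrp1 gave no ratio, and no upstream feature was matched to png1. Precipitate signals at the SPAC18B11.09c feature were 375, 537 and 633, far below the 1519.6, 1122 and 1569.9 upstream of tup11. At the hrp1 feature they were 448, 949 and 1534, beside 372, 590 and 1381 upstream of hst4. The hrp1 ORF gave -0.81 on replicate 2 alone, and the png1 ORF gave -1.02 and -1.26 on replicates 1 and 2. Of the ORFs across these regions, rqc2 (-0.93 ± 0.37, SD, n = 3, limma adjusted p = 0.00737) and gfa1 (-0.87 ± 0.58, limma adjusted p = 0.0147) were depleted. The ORF of SPAC18B11.09c, next to tup11, gave 0.28 ± 0.24 and was not called (limma adjusted p = 0.421).

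The complexes around these proteins were examined through 7 lists of 59 genes. They cover other subunits of Clr6 complexes, the Set3 complex in which Hos2 acts, SHREC, and the repressors Fep1, Php4 and Scr1. The other lists hold heterochromatin factors, histone acetyltransferases and chromatin remodellers. Of 58 upstream features 31 were tested, with 9 enriched, 5 depleted and 17 not called, and a median of 0.19. Over all intergenic features 42.2% were enriched and 7.77% depleted, with a median of 0.51. Of 59 ORFs 31 were tested, with 1 enriched, 14 depleted and 16 not called, and a median of -0.65. Over all ORFs 8.19% were enriched and 38.8% depleted, with a median of -0.49. The binding list held 5 of the 31 upstream features (25.2% over all intergenic features) and 0 of the 31 ORFs (3.78%). These shares are also the background for the single lists, which hold few genes each.

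In the heterochromatin list, the region upstream of swi6, which encodes an HP1 protein, gave 1.43, 1.73 and 1.88, with a mean of 1.68 ± 0.23 (SD, n = 3, limma adjusted p = 1.94e-05). It was the 1 enriched feature of 3 tested upstream, and the ORF of chp2, which encodes another HP1 protein, was depleted at -1.24 ± 0.30 (limma adjusted p = 0.000610). In SHREC, the complex of Clr3, the region upstream of ccq1, a telomere protein, gave 1.53, 1.63 and 1.84 (mean 1.67 ± 0.16, limma adjusted p = 1.97e-05). It was enriched, whereas the 2 other upstream features tested were not called. The ORF of mit1, the remodeller subunit of SHREC, gave 0.73, 0.39 and 1.39 (mean 0.84 ± 0.51, limma adjusted p = 0.0171), the only enriched ORF of the 7 lists.

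Of 6 upstream features of Clr6 partners, png2, an ING-family subunit, was enriched at 1.01 ± 0.38 (limma adjusted p = 0.00418), and 0 were depleted. Among 6 of their ORFs 4 were depleted and 0 enriched, with dep1 at -1.08 ± 1.01, nts1 at -0.86 ± 0.78 and cti6 at -0.74 ± 0.28 among them. In the Set3 complex the regions upstream of snt1 and set3 were called in opposite directions. That of snt1 was enriched at 1.01 ± 0.39 (limma adjusted p = 0.00414), and that of set3, which names the complex, was depleted at -0.82 ± 0.48 (limma adjusted p = 0.0191).

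Upstream features of acetyltransferase genes, the enzymes opposed to deacetylases, were enriched in 3 of 5 cases, including ada2 of the SAGA complex at 1.31 ± 0.29 (limma adjusted p = 0.000364) and elp3 of Elongator at 0.96 ± 0.20. Their ORFs were depleted in 2 of 5 cases, rtt109 (-1.36 ± 0.67) and ada2 itself (-0.81 ± 0.50). Among remodellers, 2 upstream features were enriched and 4 depleted of 10, and 6 ORFs were depleted of 8. Upstream of fft2, a Fun30-type remodeller, the value was 1.57 ± 0.32 (limma adjusted p = 4.56e-05). The lowest ORFs were those of sol1 (-1.94 ± 0.69), a SWI/SNF subunit, rsc1 (-1.84 ± 0.40) of the RSC complex and rhp26 (-1.73 ± 0.36), a repair ATPase. For the repressors fep1, php4 and scr1, 0 of 5 features passed limma, with an upstream median of 0.13 and an ORF median of -0.21.

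**Figure D4:**
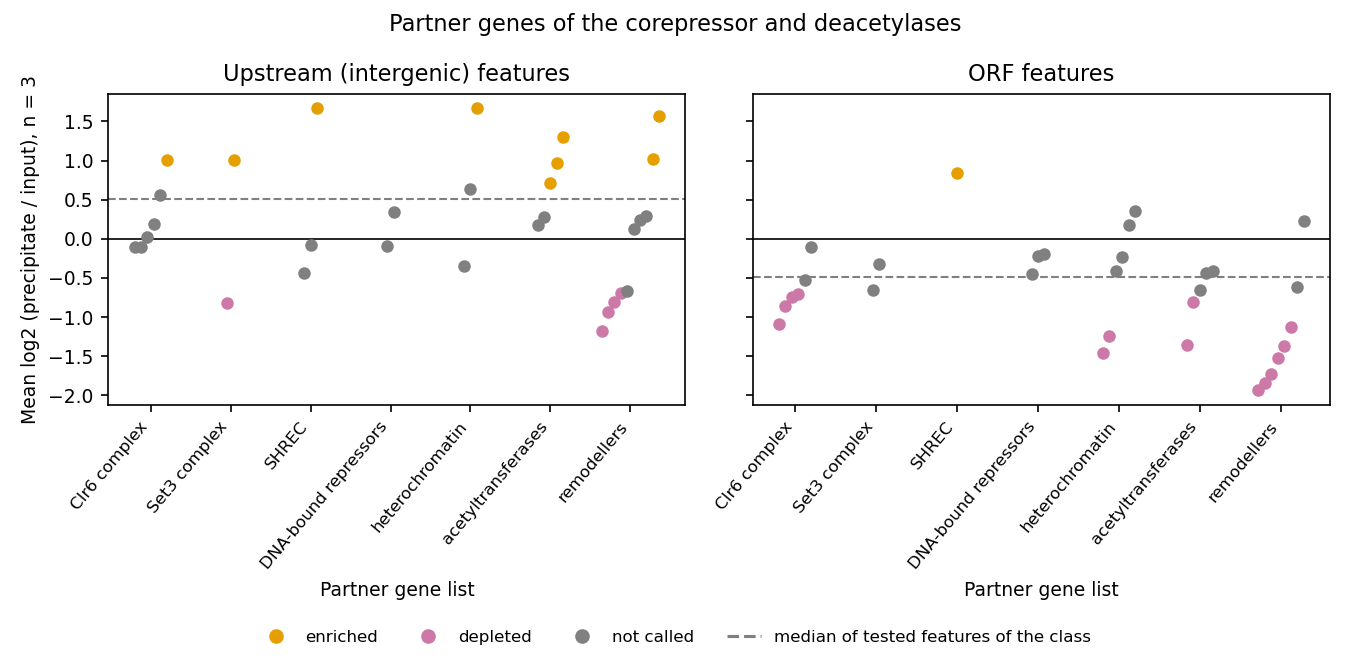
Mean log2 ratio of precipitate over input (y axis, n = 3) of upstream (left) and ORF (right) features for the 7 partner lists (x axis), each point 1 gene. Orange points are enriched, pink depleted and grey not called; dashed lines are the medians of all tested intergenic (0.51) and ORF (-0.49) features, and 9 upstream features but 1 ORF are orange.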

How the data were processed

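The authors deposited integrated intensities of both channels at 22176 spots for each of 3 two-colour arrays, quantified with TIGR Spotfinder per the labels' protocols. The authors' deposited series matrix of log10 values, normalized in GeneSpring to the 50th percentile per the labels, served as an alternative. Software versions and the array's genome build are not stated in the labels or file headers, so no coordinates or sequences are given.

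From the deposited intensities the log2 of Cy5 over Cy3 was taken where neither channel was flagged as rejected, centred on the array median (0.52, -0.29 and 0.24 before centring), and averaged over 2 repeat spots. Features with a ratio on 3 arrays were tested in limma 3.58.1 (R 4.3.3; lmFit, eBayes, mean against 0). Upstream minus ORF differences were tested likewise for 1283 genes. On simulated data limma recovered 66% and 72% of features shifted by 1 and -1 log2 units among 5462, and 100% of those shifted by 2. Each shift was given to 50 features, and 13 unshifted features were called. Far fewer features were shifted than were called in the data, so these rates need not apply to the data. The deposited values allow no depth; the number of arrays limits precision.

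Of 9974 feature names 9422 matched ASM294v3 genes by systematic name, symbol or older symbol. Members and lists were chosen with earlier results of these data known. Named genes were the members, divergent neighbours and, per partner list, up to 4 called features by adjusted p; 1 of these is not reported here. Alternatives covered normalization, background, filters, zero point and replicates left out.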

Additional observations from a re-analysis of the deposited data

Results flagged for a closer look

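On single arrays 2 features had a precipitate signal above the 95th percentile of negative controls although their input was not accepted, so they entered no ratio there. The region upstream of tup11 gave 1519.6 signal units per pixel on replicate 1, against a limit of 1448. The hst4 ORF gave 2604 on replicate 3, against 1842. Neither mean signal exceeded the limit on the other arrays. On replicate 1 the hst4 ORF averaged 1101 because its rejected spot counted as 0. Its 1 accepted spot there read 2203, above the limit of 1448.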

How the results depend on the processing

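No paired analysis was possible because all arrays belong to 1 group, so no replicate numbers are shared between groups (upstream minus ORF differences are already taken within arrays). The count of enriched features, 0 as reported, was 1 after loess, without dim input, centred on ORFs and centred within bins of input intensity (ssn6 upstream each time), 1 with values on at least 2 arrays (pst1 upstream), 1 in the series matrix (clr3 ORF) and 3 without the flag filter (upstream of tup11, hos2 and sir2, where rejected input is set to a floor). Leaving out 1 replicate gave 0 to 1. The count of depleted features, 3 as reported, was 0 in the series matrix, where none of the 3 had a value on all arrays, 0 after further background subtraction, where only the tup11 ORF of the 3 could be tested, and 1 with normexp, without dim input, centred on ORFs and centred on the own class (tup11 ORF each time). Leaving out 1 replicate gave 2 to 3. Upstream above ORF held for 1 gene, ssn6, as reported. It held for 0 when centred on the own class or within input bins and for 0 in the series matrix, where ssn6 was not tested, clr3 passed in the other direction at -2.97 (limma adjusted p = 0.0423) and pst1 gave -1.28 (0.320). It held for 3 with values on at least 2 arrays (ssn6, hst2 and pst1). Without the flag filter it held for 3 other genes (tup11, hos2 and sir2), where rejected input is set to a floor. There ssn6 itself did not pass, at 1.42 (limma adjusted p = 0.181). Leaving out 1 replicate gave 0 to 2. Further background subtraction left no gene with both features. The binding list held 0 as reported, 2 without the flag filter and 1 in the series matrix, and 0 without any single replicate.

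The tup11 ORF was called in 13 of 14 alternatives, from -3.20 to -0.63, and did not pass with further background subtraction, where its mean was -3.20 (limma adjusted p = 0.122). The series matrix is not among these 14. There the tup11 ORF gave 0.40 and 0.66 on replicates 1 and 3, above the array median. In the same matrix the hst2 ORF gave -0.45 and 0.47 on those arrays, and the ssn6 ORF -1.54 on replicate 1 alone. The ssn6 ORF turned to 0.18 within input bins. The clr3 ORF turned to 2.49 in the series matrix. Causes were not tested. Input was a limit upstream, where 8 of 9 upstream features had no accepted input on at least 1 array.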

Other observations

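The 2 genes next to sir2 each have an upstream region in the binding list, noticed after the values were seen. Each region lies on the far side of its gene from sir2. Over all tested intergenic features 25.2% were in the list and 42.2% were enriched. The region upstream of hsp104, a heat shock disaggregase gene in tandem upstream of sir2, gave 1.24, 1.25 and 1.11, with a mean of 1.20 ± 0.08 (SD, n = 3, limma adjusted p = 0.000734). The region upstream of zrt1, a zinc transporter gene convergent to sir2, gave 1.18, 0.88 and 1.22, with a mean of 1.09 ± 0.19 (SD, n = 3, limma adjusted p = 0.00184). The median ranks were the 87.0th and 85.6th percentiles. Precipitate signals of both regions exceeded the 95th percentile of negative controls on all 3 arrays, as 12.8% of intergenic features did. Those of sir2's own upstream region and ORF exceeded it on 0 arrays.

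Next to ssn6, 1 feature upstream of rgp1 (sat1 on the array) gave -0.19 ± 0.27 (SD, n = 3) and was not called (limma adjusted p = 0.586). A further feature named for a long intergenic region of this gene was depleted, at -0.68 ± 0.35 (SD, n = 3, limma adjusted p = 0.0450). The rgp1 ORF had precipitate signals of 15242, 9588 and 11002, above the limit on all arrays, at a ratio of -0.11 ± 0.37 (limma adjusted p = 0.769).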
